A study of Mus musculus with 6 samples.

Results

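The genes of fatty acid oxidation were examined by RNA-seq in mouse Th17 cells, a class of CD4+ T cells known for secreting interleukin 17. The list holds 38 genes named for their function and sorted here into 8 roles. Of these, 37 have a row among the 15452 genes of the deposited count table, and the 37 were all among the 15361 genes tested. Slc27a2, a fatty acid transporter, has no row and is given no value. KO denotes cells of PDHfl/fl CD4 Cre+ mice, which carry floxed PDH alleles and a Cre recombinase driven in T cells by CD4 regulatory sequences. WT denotes cells of PDHfl/fl mice, which carry the same floxed alleles without Cre. PDH, pyruvate dehydrogenase, is the mitochondrial complex that converts pyruvate to acetyl-CoA (the sample titles spell it PHD and the protocol PDH). Each group has 3 RNA-seq libraries. In both groups naïve CD4+ T cells from spleen and lymph nodes were grown for 3 days with plate-bound antibody to CD3 (5 µg/mL), antibodies to CD28 (1 µg/mL) and IFNγ (5 µg/mL), IL-6 (30 ng/mL) and TGFβ (2 ng/mL). Cre was present in every KO library and in no WT library, so an effect of Cre and an effect of the deletion cannot be told apart. No label states that the replicates are different animals or cultures, and p-values therefore measure only the spread between these samples.

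Fatty acids enter cells through membrane carriers and binding proteins, are joined to coenzyme A by acyl-CoA synthetases, and cross into mitochondria as carnitine esters. There each turn of β-oxidation runs through dehydrogenation, hydration, a further dehydrogenation and thiolysis, which releases acetyl-CoA. The acyl-CoA dehydrogenases pass their electrons through the electron transfer flavoprotein to the respiratory chain. Peroxisomes run a parallel cycle on very long and branched chains that starts with an oxidase. Fatty acid oxidation is best known among T cells in memory and regulatory cells, whereas activated effector cells rely largely on glucose and glutamine.

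Library totals ran between 33.8 and 39.4 M counts in KO and between 37.6 and 40.4 M counts in WT (M, 1000000). Levels are counts per 1000000 counts after TMM scaling (CPM), and a change is the log2 fold change of KO over WT with its SE. A gene is called when its adjusted p in edgeR's quasi-likelihood test is under 0.05 after Benjamini-Hochberg adjustment over all tested genes. Pdha1, which encodes the catalytic E1 alpha subunit of PDH, had 198, 193 and 186 CPM in KO and 256, 236 and 251 CPM in WT. It was lower in KO by a log2 fold change of -0.36 ± 0.06 (adjusted p 0.000871) and fell by 22.2%, so most of its counts remained. The decrease did not pass a test against a 1.2-fold change (adjusted p 0.0622). Which PDH gene is floxed, and over which exon, is not given in the sources used here. Pdhb, the E1 beta subunit, was not called (-0.14 ± 0.06, adjusted p 0.063) but passed without WT replicate 3 (-0.18, adjusted p 0.0369). Dlat, the E2 subunit, was lower (-0.68 ± 0.06, adjusted p 3.55e-05). Marker sums, here and below, are counts per 1000000 of the library total, without TMM scaling. The 6 T cell markers summed to between 1303 and 1411 CPM in KO and between 1806 and 1855 CPM in WT. The 6 Th17 markers summed to between 592 and 752 CPM in KO and between 902 and 1210 CPM in WT. In bulk RNA, fewer cells of a type and less RNA per cell cannot be told apart, and the part of these sums in the results that follow was not tested. The 8 B cell markers summed to 4.37, 49.5 and 81.3 CPM in KO replicates 1 to 3 and to 5.25, 26.6 and 5.00 CPM in WT replicates 1 to 3. KO replicates 2 and 3 and WT replicate 2 thus stood apart, and a named gene whose call is lost without those 3 libraries, or whose called value moves by over 1.5 times, is given both ways. Sirt3 and Ppargc1b, named below, are the exception, since their values in that fit were not kept.

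Most of the fatty acid oxidation genes that changed were lower in KO cells. Of the 37 tested members, 19 fell, 3 rose (Acox3, Acad8 and Acad9) and 15 were not called. The called share was 59.5% against 47.6% of all tested genes. The share that fell was 51.4% against 24.5% of all tested genes, and the share that rose was 8.11% against 23.1%. The median log2 fold change over the 37 was -0.24, beside 0.01 over all tested genes, and 32 of the 37 values were negative. KO and WT libraries did not overlap in 25 members, or 67.6%, against 58.2% of all tested genes. Taken library by library against the WT mean, the median member stood at -0.22, -0.27 and -0.25 on the log2 scale in KO replicates 1 to 3 and at 0.02, -0.03 and 0.02 in WT replicates 1 to 3. All 3 KO libraries were therefore below all 3 WT libraries. Summed over the 37 genes, the members held 2243 ± 79.8 CPM in KO and 2684 ± 41.1 CPM in WT (SD, n = 3 each), a difference of -16.4%. With upper-quartile scaling 16 members fell and 3 rose, and over all genes that scaling called 4382 higher and 2927 lower, beside 3548 higher and 3763 lower with TMM.

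**Figure D1:**
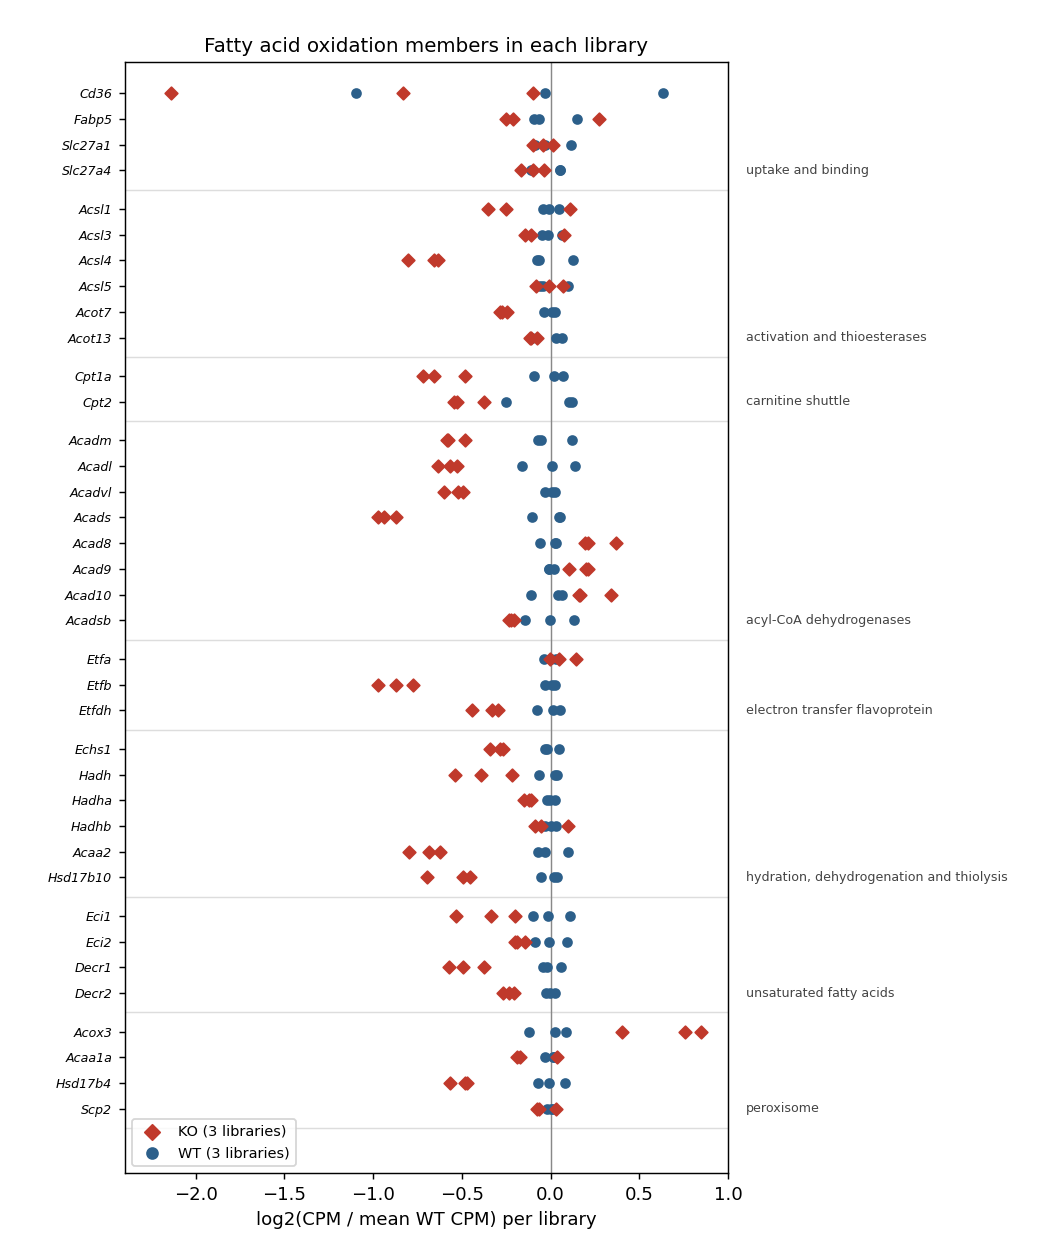
Log2 ratio of each library's CPM to the WT mean (x axis) for the 37 tested members (y axis, grouped by role). Diamonds are the 3 KO libraries and circles the 3 WT libraries; the diamonds lie left of the circles in 21 members, right of them in 4 and among them in 12.

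**Figure D2:**
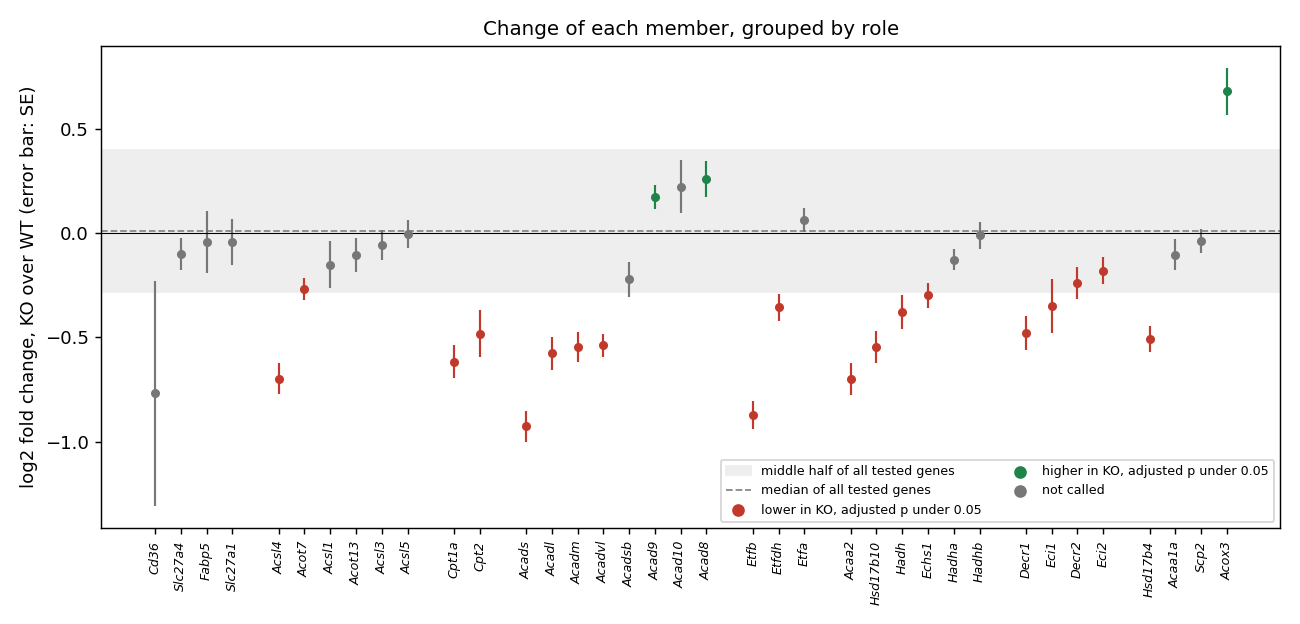
Log2 fold change of KO over WT with its SE (y axis) for each tested member (x axis, grouped by role). The shaded band spans the interquartile range of all 15361 tested genes and the dashed line their median of 0.01; 19 members are marked lower, 3 higher and 15 not called.

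The DNA just upstream of 5 members is shown to set the promoters of the steepest decreases beside that of the clearest increase. Acads and Etfb had the largest called decreases, Cpt1a and Acadvl are the genes of long-chain entry and first dehydrogenation, and Acox3 had the largest increase. The sequences are the 250 bases before the RefSeq start on GRCm38.p6, written 5′ to 3′ on the strand of the gene. Capitals mark matches, on either strand, to AGGTCA (the hexamer read by PPAR, ERR and other nuclear receptors), CCAAT or the GC box GGGCGG.
Acads (chr5:115119347-115119596, minus strand): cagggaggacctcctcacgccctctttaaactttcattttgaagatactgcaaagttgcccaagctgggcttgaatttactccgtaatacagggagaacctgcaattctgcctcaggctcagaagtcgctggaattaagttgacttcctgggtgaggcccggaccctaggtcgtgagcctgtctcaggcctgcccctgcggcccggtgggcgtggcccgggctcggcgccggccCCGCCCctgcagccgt
Etfb (chr7:43443822-43444071, plus strand): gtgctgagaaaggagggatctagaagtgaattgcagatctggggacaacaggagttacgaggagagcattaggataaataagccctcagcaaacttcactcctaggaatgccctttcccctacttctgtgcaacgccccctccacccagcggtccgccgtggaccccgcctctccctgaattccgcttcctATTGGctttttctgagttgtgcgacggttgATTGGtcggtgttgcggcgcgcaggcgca
Cpt1a (chr19:3323051-3323300, plus strand): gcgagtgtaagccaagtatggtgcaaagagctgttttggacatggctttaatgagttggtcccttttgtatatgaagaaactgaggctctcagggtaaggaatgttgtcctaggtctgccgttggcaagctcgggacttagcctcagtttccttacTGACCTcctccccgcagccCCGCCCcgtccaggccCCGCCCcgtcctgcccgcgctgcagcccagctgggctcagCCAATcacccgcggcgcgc
Acadvl (chr11:70015429-70015678, minus strand): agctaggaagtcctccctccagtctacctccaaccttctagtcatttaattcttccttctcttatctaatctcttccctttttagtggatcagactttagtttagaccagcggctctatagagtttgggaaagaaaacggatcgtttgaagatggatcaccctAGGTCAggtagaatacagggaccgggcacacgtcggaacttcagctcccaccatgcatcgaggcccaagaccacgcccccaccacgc
Acox3 (chr5:35582784-35583033, plus strand): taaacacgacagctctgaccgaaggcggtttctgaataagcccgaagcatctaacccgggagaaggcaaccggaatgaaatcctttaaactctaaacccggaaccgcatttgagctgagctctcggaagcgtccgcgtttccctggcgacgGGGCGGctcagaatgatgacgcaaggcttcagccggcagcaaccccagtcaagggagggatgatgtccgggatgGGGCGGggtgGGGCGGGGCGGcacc
In these 250 bases the AGGTCA hexamer starts 94 bases before the start in Cpt1a, on the opposite strand, and 87 bases before it in Acadvl. None of the marked letters in Acads, Etfb or Acox3 is that hexamer. Windows of 300 bases, which add 50 bases after the start, were given for 32 of the 38 members. AGGTCA was found in 7 of the 32 (21.9%), in 18.1% of all 27025 genes with a window, and in 14.9% of the 10482 that were also tested here. The 7 were Acadm, Acadvl, Cd36, Cpt1a, Echs1, Scp2 and Slc27a2, and 4 of them are among the 16 lower members with a window. Another 2 are among the 15 other tested members with a window, and Slc27a2 was not tested. The longer ERR site TCAAGGTCA, which contains the hexamer, was in 0 of the 32 and in 0.466% of all genes. A pair of hexamers with 1 base between them, the kind bound by PPAR with RXR, was in 0 of the 32 and in 0.0481% of all genes. The E-box CACGTG was in 1 of the 32 (3.12%, against 8.09% of all genes), and CCAAT was in 14 (43.8%, against 41.1%). GGGCGG was in 27 of the 32 (84.4%), against 38.2% of all genes and 66.6% of those tested here. A match describes these letters only and is not a binding site.

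Genes of fatty acid uptake showed no called change. Fabp5, a cytosolic fatty acid binding protein, had 251, 179 and 175 CPM in KO and 195, 230 and 198 CPM in WT. The groups overlapped, since KO replicate 1 was the highest of the 6 libraries and KO replicates 2 and 3 the lowest (-0.04 ± 0.15, adjusted p 0.838, 95% interval -0.40 to 0.31). Without the 3 libraries with raised B cell markers Fabp5 was higher in KO (0.35, adjusted p 0.00766), which leaves KO replicate 1 alone, assumed to vary like the others, against WT replicates 1 and 3. Slc27a1 and Slc27a4, which encode fatty acid transport proteins, had log2 fold changes of -0.04 ± 0.11 and -0.10 ± 0.08 (adjusted p 0.775 and 0.325). Cd36, a scavenger receptor that takes up long-chain fatty acids, was near the limit of detection at 0.115 to 0.470 CPM in KO and 0.236 to 0.784 CPM in WT. At this depth 3 counts correspond to between 0.0742 and 0.0888 CPM, and no difference in Cd36 was detectable (-0.77 ± 0.54, adjusted p 0.269). Its log2 fold change ran between -1.32 without KO replicate 1 and -0.32 without WT replicate 1, and none of these fits called it.

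Among the members that activate fatty acids, the decrease lay in Acsl4 (Acsl6, a synthetase outside the list, also fell and is given below). Acsl4, an acyl-CoA synthetase with a preference for arachidonate and other polyunsaturated fatty acids, had 237, 234 and 211 CPM in KO and 350, 353 and 403 CPM in WT. Every KO library was below every WT library (-0.70 ± 0.08, adjusted p 0.000112), and the level fell by 38.4%. Acsl5, a synthetase of the mitochondrial outer membrane and endoplasmic reticulum, had 287, 272 and 258 CPM in KO and 262, 292 and 265 CPM in WT. Its groups overlapped (0.00 ± 0.07, adjusted p 0.963), and the 95% interval of its log2 fold change was -0.15 to 0.15. The synthetases Acsl1 (-0.15 ± 0.11, adjusted p 0.304) and Acsl3 (-0.06 ± 0.07, adjusted p 0.547) were not called either, although Acsl1 passed without KO replicate 1 (-0.30, adjusted p 0.0193). Of the thioesterases, which split acyl-CoA back into free acid, Acot7 had 131, 128 and 127 CPM in KO and 158, 156 and 151 CPM in WT. The 3 KO values were all below the 3 WT values (-0.27 ± 0.05, adjusted p 0.00252), but the decrease did not pass a test against a 1.2-fold change (adjusted p 0.446). Acot13 was not called (-0.10 ± 0.08, adjusted p 0.324).

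Both members of the carnitine shuttle fell. Cpt1a, the outer membrane carnitine palmitoyltransferase that commits long-chain acyl groups to mitochondrial oxidation, had 39.0, 33.1 and 34.6 CPM in KO and 57.2, 51.1 and 55.3 CPM in WT. The groups did not overlap (-0.62 ± 0.08, adjusted p 0.000281), and the level fell by 34.8%. Cpt2, the inner membrane enzyme that restores acyl-CoA inside mitochondria, had 13.4, 13.5 and 15.1 CPM in KO and 20.97, 16.4 and 21.3 CPM in WT. WT replicate 2 was nearest to the KO libraries but still above them (-0.48 ± 0.11, adjusted p 0.00681), and the decrease did not pass against a 1.2-fold change (adjusted p 0.0504). Together the pair held 49.6 ± 2.91 CPM in KO and 74.1 ± 5.74 CPM in WT (SD, n = 3 each), a difference of -33.1%, the largest among the 8 roles in summed CPM.

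The acyl-CoA dehydrogenases, which catalyse the first step of each turn, did not all move together. The 4 enzymes named for short, medium, long and very long chains all fell, and 2 of the other 4 rose. Acads, which acts on short chains, had 21.5, 23.2 and 22.1 CPM in KO and 43.8, 39.4 and 43.7 CPM in WT. The highest KO library was well below the lowest WT library (-0.93 ± 0.07, adjusted p 2.55e-05). Its level fell by 47.4%, the largest called decrease among the members. Acadm, the medium-chain enzyme, had 32.6, 34.9 and 32.5 CPM in KO and 46.8, 46.4 and 52.9 CPM in WT (-0.55 ± 0.07, adjusted p 0.00035). Acadl, the long-chain enzyme, had 84.6, 82.1 and 78.5 CPM in KO and 123, 109 and 134 CPM in WT (-0.58 ± 0.08, adjusted p 0.000358). Acadvl, the very-long-chain enzyme of the inner membrane, had 66.6, 67.7 and 62.9 CPM in KO and 95.9, 97.1 and 93.4 CPM in WT (-0.54 ± 0.06, adjusted p 9.4e-05). In these 4 genes no KO library reached a WT library. The ratio of Acadvl to Acadl counts was 0.805 ± 0.0191 in KO and 0.790 ± 0.098 in WT (SD, n = 3 each; exact two-sided permutation p 0.7).

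Acad8, the isobutyryl-CoA dehydrogenase of valine breakdown, had 17.3, 19.5 and 17.5 CPM in KO and 15.4, 14.5 and 15.4 CPM in WT (0.26 ± 0.09, adjusted p 0.0318). Acad9, which also serves as an assembly factor of respiratory complex I, had 64.6, 65.3 and 60.6 CPM in KO and 56.1, 57.0 and 56.0 CPM in WT (0.17 ± 0.06, adjusted p 0.0338). The groups did not overlap in either gene, but both rises were small and were lost in several alternatives. Acad8 lost its call without KO replicate 2, KO replicate 3, WT replicate 1 or WT replicate 2 (adjusted p 0.128, 0.0575, 0.0799 and 0.0754), and Acad9 without KO replicate 1, KO replicate 2, WT replicate 1 or WT replicate 3 (0.0984, 0.127, 0.116 and 0.0652). Neither was called without the 3 libraries with raised B cell markers, where Acad8 was at 0.16 (adjusted p 0.349) and Acad9 at 0.21 (adjusted p 0.0725). Acad10 was not called (0.22 ± 0.13, adjusted p 0.169). Acadsb, the dehydrogenase of short branched chains from isoleucine, was not called either (-0.22 ± 0.08, adjusted p 0.0527) but passed without WT replicate 2 (-0.29, adjusted p 0.0155). Summed over all 8 dehydrogenases, the level was 315 ± 8.90 CPM in KO and 413 ± 19.2 CPM in WT (SD, n = 3 each), a difference of -23.7%.

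The partners of the electron transfer flavoprotein, which takes electrons from these dehydrogenases as a dimer of Etfa and Etfb, differed in their change. Etfb had 33.8, 38.8 and 36.2 CPM in KO and 65.0, 67.4 and 66.6 CPM in WT. The groups lay far apart with narrow spreads (-0.87 ± 0.07, adjusted p 2.26e-05), and the level fell by 45.3%. Etfa had 89.7, 84.2 and 81.1 CPM in KO and 81.6, 83.2 and 79.2 CPM in WT, with overlapping groups (0.06 ± 0.06, adjusted p 0.403, 95% interval -0.07 to 0.20). The ratio of Etfb to Etfa counts within a library does not depend on scaling and was 0.377, 0.461 and 0.447 in KO and 0.796, 0.810 and 0.841 in WT. All KO ratios were below all WT ratios by 1.91-fold on average, and the exact two-sided permutation p was 0.1, the smallest that 3 libraries against 3 allow. This pair and the other ratios given here were chosen after the values were seen. Etfdh, the inner membrane oxidoreductase that hands the electrons to ubiquinone, had 50.8, 56.3 and 54.9 CPM in KO and 69.9, 65.6 and 71.8 CPM in WT. It fell without overlap (-0.36 ± 0.07, adjusted p 0.00182), though not against a 1.2-fold change (adjusted p 0.0945).

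**Figure D3:**
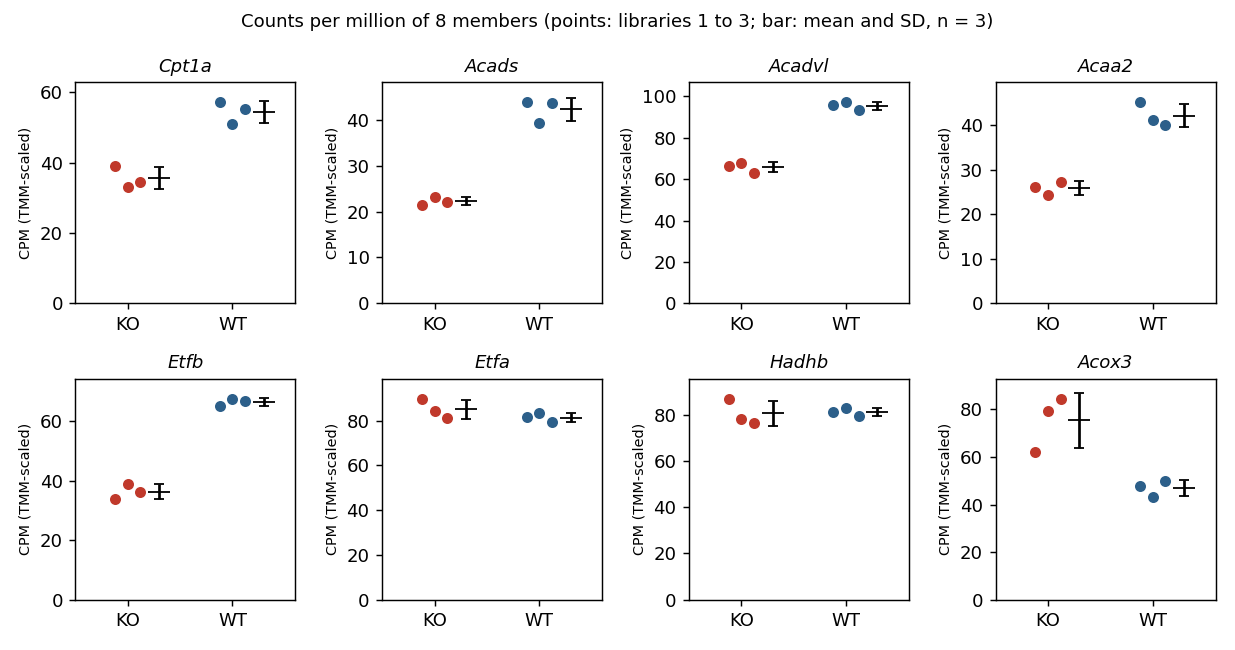
TMM-scaled CPM (y axis, from 0) of 8 members in KO (left, 3 libraries) and WT (right, 3 libraries), with the mean and SD beside the points. Cpt1a, Acads, Acadvl, Acaa2 and Etfb are lower in KO without overlap, Etfa and Hadhb overlap, and Acox3 is higher in KO.

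Of the 6 genes of hydration, the further dehydrogenation and thiolysis, 4 fell. Acaa2, the mitochondrial thiolase that ends the turn, had 26.2, 24.2 and 27.3 CPM in KO and 45.1, 41.2 and 40.03 CPM in WT. Its groups did not overlap (-0.70 ± 0.08, adjusted p 0.00012), and the level fell by 38.5%. Hsd17b10, a hydroxyacyl-CoA dehydrogenase that acts in isoleucine breakdown and is also a subunit of mitochondrial RNase P, had 36.2, 41.6 and 42.8 CPM in KO and 60.1, 56.5 and 59.3 CPM in WT. It was lower in every KO library (-0.55 ± 0.08, adjusted p 0.000393). Hadh, the dehydrogenase of short and medium chains (-0.38 ± 0.08, adjusted p 0.0044), and Echs1, the short-chain hydratase (-0.30 ± 0.06, adjusted p 0.00302), fell without overlap but did not pass against a 1.2-fold change (adjusted p 0.0977 and 0.27). Without the 3 libraries with raised B cell markers Hadh was at -0.25 (adjusted p 0.0381).

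Hadha and Hadhb, the alpha and beta subunits of the trifunctional protein that carries out the same steps on long chains, were not called. Hadha had 136, 133 and 137 CPM in KO and 150, 146 and 147 CPM in WT, without overlap between the groups (-0.13 ± 0.05, adjusted p 0.069). Hadhb had 86.9, 78.3 and 76.5 CPM in KO and 81.2, 82.9 and 79.5 CPM in WT, with overlap (-0.01 ± 0.06, adjusted p 0.908, 95% interval -0.15 to 0.13). The ratio of Hadha to Hadhb counts was 1.68 ± 0.114 in KO and 1.82 ± 0.0533 in WT (SD, n = 3 each; exact two-sided permutation p 0.2).

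The 4 auxiliary enzymes for unsaturated fatty acids all fell, but 3 of the 4 calls were close to the threshold. Decr1, the mitochondrial dienoyl-CoA reductase, had 16.1, 18.5 and 16.97 CPM in KO and 23.3, 23.6 and 24.9 CPM in WT. Its groups were apart (-0.48 ± 0.08, adjusted p 0.00127). Decr2, the peroxisomal dienoyl-CoA reductase, fell less (-0.24 ± 0.08, adjusted p 0.0282), as did the enoyl-CoA isomerases Eci1 (-0.35 ± 0.13, adjusted p 0.0488) and Eci2 (-0.18 ± 0.06, adjusted p 0.0412). Eci1 was among the lowest members, at 5.79 to 7.28 CPM in KO and 7.81 to 9.02 CPM in WT. Decr2, Eci1 and Eci2 were not called with upper-quartile scaling or library totals. Eci1 kept its call only when KO replicate 3 was the library left out (adjusted p 0.0502 to 0.177 in the other 5 fits) and Eci2 only when WT replicate 2 was (0.0713 to 0.117). Decr2 lost its call without any 1 of the KO replicates or without WT replicate 1 (0.0555 to 0.106). Without the 3 libraries with raised B cell markers neither Decr2 (-0.24, adjusted p 0.187) nor Eci2 (-0.23, adjusted p 0.0627) was called, and Eci1 was at -0.54 (adjusted p 0.0448). With the B cell marker sum as a covariate Decr2 (adjusted p 0.0761) and Eci2 (adjusted p 0.115) were not called either.

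Of the 4 peroxisomal members 1 rose, 1 fell and 2 were not called. Acox3, an acyl-CoA oxidase that starts the breakdown of branched chains, had 62.2, 79.5 and 84.5 CPM in KO and 47.8, 43.2 and 49.9 CPM in WT. All KO libraries were above all WT libraries (0.68 ± 0.11, adjusted p 0.0014), a rise of 60.4% and the largest among the members. KO replicate 1, the library with the lowest Acox3 in its group, also had the lowest B cell marker sum of that group, 4.37 CPM against 49.5 and 81.3 CPM. In WT the order was the other way, since WT replicate 2 had the highest marker sum of its group (26.6 CPM) and the lowest Acox3. The part of these markers in the Acox3 difference was not tested beyond the following values. Without the 3 libraries with raised B cell markers Acox3 was at 0.35 (adjusted p 0.0128), and with the B cell marker sum as a covariate at 0.58 (adjusted p 0.00389). Hsd17b4, the peroxisomal bifunctional enzyme that follows the oxidase, had 53.5, 57.0 and 56.5 CPM in KO and 78.6, 75.2 and 83.6 CPM in WT. It fell without overlap (-0.51 ± 0.06, adjusted p 0.000227), and its level fell by 29.6%. Acaa1a, a peroxisomal thiolase (-0.10 ± 0.07, adjusted p 0.28), and Scp2, which holds a thiolase and a sterol carrier domain (-0.04 ± 0.06, adjusted p 0.624), were not called. Acaa1a has a near-identical paralog, Acaa1b, and transcript quantification can split reads between them. The 4 genes together held 253 ± 10.9 CPM in KO and 254 ± 7.19 CPM in WT (SD, n = 3 each), a difference of -0.102%.

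Divided by transcript length, the order of the members' levels differed little between groups at its ends. Fabp5 was highest in both, at 204 ± 43.4 CPM per kb in KO and 210 ± 19.6 CPM per kb in WT (SD, n = 3 each), followed by Acot7 at 85.6 CPM per kb in KO and 103 CPM per kb in WT. Cd36 was lowest in both, at 0.0851 CPM per kb in KO and 0.148 CPM per kb in WT. Etfb stood at rank 8 of 37 in KO (40.6 CPM per kb) and at rank 3 in WT (74.3 CPM per kb). Etfa stood at rank 4 in KO (61.1 CPM per kb) and at rank 8 in WT (58.4 CPM per kb). The level of Etfa thus exceeded that of Etfb per kb in KO, whereas Etfb exceeded Etfa in WT. Cpt1a (8.24 CPM per kb in KO, 12.6 in WT) and Cpt2 (5.90 in KO, 8.24 in WT) were in the lower part of the order, at ranks 26 and 30 in KO and 25 and 28 in WT.

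Related genes outside the list were read from 9 lists of the surrounding pathways, which together gave 100 tested genes. Of these 23 were higher and 41 lower, where 23.1% of all tested genes were higher and 24.5% lower. Acat1 and Plin2 stand in 2 lists each. They are counted once in these totals and in both of their lists below. In the carnitine and mitochondrial entry list 2 of 7 tested genes were higher and 2 lower. Cpt1c, the isoform best known from neurons, had 7.77, 17.8 and 16.3 CPM in KO and 2.11, 1.73 and 2.37 CPM in WT. It was higher in all KO libraries (2.75 ± 0.33, adjusted p 0.000735), by 1.79 without the 3 libraries with raised B cell markers (adjusted p 0.000669). Crat, which exchanges acetyl groups between carnitine and coenzyme A (-0.76 ± 0.15, adjusted p 0.00244), and Slc25a20, the carnitine-acylcarnitine carrier (-0.30 ± 0.07, adjusted p 0.00874), fell. Slc25a20 lost its call without those 3 libraries (-0.29, adjusted p 0.0711) and against a 1.2-fold change (adjusted p 0.297). Mlycd, which removes malonyl-CoA, the inhibitor of Cpt1, rose (0.37 ± 0.12, adjusted p 0.0331) but lost its call without any single library other than WT replicate 2 (adjusted p 0.0636 to 0.114) and without the 3 libraries with raised B cell markers (0.44, adjusted p 0.0631).

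Among 17 other tested mitochondrial acyl-CoA genes 9 fell and 4 rose. The 4 became 2 without KO replicate 2, KO replicate 3, WT replicate 1 or WT replicate 2. Acss1, the mitochondrial acetyl-CoA synthetase (-1.17 ± 0.15, adjusted p 0.000286), Pcca, a subunit of propionyl-CoA carboxylase (-0.61 ± 0.08, adjusted p 0.000384), and Acat1, the acetoacetyl-CoA thiolase (-0.52 ± 0.06, adjusted p 0.00016), fell. Acot2, a mitochondrial thioesterase, had 13.3, 11.7 and 13.1 CPM in KO and 6.57, 6.15 and 5.66 CPM in WT and rose without overlap (1.05 ± 0.11, adjusted p 0.000101). Pccb, the partner subunit of Pcca, named here after its value was seen, rose (0.71 ± 0.10, adjusted p 0.000407). The ratio of Pcca to Pccb counts was 0.652 ± 0.0197 in KO and 1.66 ± 0.327 in WT (SD, n = 3 each; exact two-sided permutation p 0.1). The 4 tested genes of ketone body metabolism all fell. They include Bdh1, which interconverts the ketone bodies (-0.88 ± 0.06, adjusted p 1.76e-05), Oxct1, which activates acetoacetate (-0.69 ± 0.06, adjusted p 3.39e-05), and Acat1. Oxct1 had 183, 177 and 172 CPM in KO and 279, 278 and 299 CPM in WT.

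Of 16 other tested genes of peroxisomal oxidation 7 fell and 2 rose. The 7 became 3 without WT replicate 1, 4 without KO replicate 1 or without KO replicate 3, and 3 with library totals. Pecr, an enoyl-CoA reductase (-0.87 ± 0.16, adjusted p 0.00188), and Crot, the peroxisomal carnitine octanoyltransferase (-0.44 ± 0.08, adjusted p 0.00223), fell. Amacr, the racemase that prepares branched chains for the oxidases, rose (0.60 ± 0.10, adjusted p 0.00133). Acaa1b was called higher at 39, 17 and 29 counts in KO and 3, 7 and 0 counts in WT, where it was near the 3-count level, and its reads may be shared with Acaa1a. Of 16 peroxisome biogenesis genes 5 fell, among them the import receptor Pex5 (-0.52 ± 0.08, adjusted p 0.000589), and 3 rose, among them the import receptor Pex7 (0.58 ± 0.10, adjusted p 0.00147).

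Of 17 tested regulators of oxidation genes 7 rose and 4 fell. Rxra, which pairs with the PPARs, nuclear receptors that bind fatty acids, had 108, 103 and 94.7 CPM in KO and 27.5, 39.3 and 23.7 CPM in WT. It was higher in every KO library (1.76 ± 0.19, adjusted p 0.000651). The deacetylase Sirt1 (0.76 ± 0.10, adjusted p 0.000255), the coactivator subunit Med1 (0.40 ± 0.06, adjusted p 0.000398) and the PGC-1-related coactivator Pprc1 (0.44 ± 0.07, adjusted p 0.000613) also rose. Esrra (-0.57 ± 0.15, adjusted p 0.0111) and Ppard (-0.33 ± 0.09, adjusted p 0.0152), nuclear receptors that act on oxidation genes and were named after their values were seen, fell. The deacetylase Sirt3 (-0.51 ± 0.11, adjusted p 0.00465) and the coactivator Ppargc1b (-0.54 ± 0.17, adjusted p 0.0256), also named after their values were seen, fell as well. Pparg, a further PPAR of the list, named on the same footing, was higher (0.82 ± 0.26, adjusted p 0.0291) at 1.12 to 1.76 CPM in KO and 0.717 to 1.07 CPM in WT. Pparg lost its call in 4 of the 6 fits that leave out 1 library, those without KO replicate 1 or 3 or WT replicate 1 or 3 (adjusted p 0.0845 to 0.098), and Ppard without WT replicate 1 (adjusted p 0.0674). Pparg was also not called with DESeq2, a replicate block, the B cell marker covariate or the test against 1.2-fold (adjusted p 0.0510 to 0.0717). Ppard was also not called with upper-quartile scaling (adjusted p 0.0552) or against 1.2-fold (adjusted p 0.225). Without the 3 libraries with raised B cell markers Esrra was at -0.96 (adjusted p 0.00138) and Ppard at -0.56 (adjusted p 0.00589). Without WT replicate 1 the regulators called lower numbered 2, beside 4. They numbered 3 without KO replicate 2, without KO replicate 3 or with the B cell marker covariate. Esrra and Ppard kept their calls in the fits that gave 3, so Sirt3, Ppargc1b or both lost theirs. Values of Sirt3 and Ppargc1b in the alternatives were not kept gene by gene. Ppara, Ppargc1a and Rxrg have no row and are given no value. Of 4 tested PPAR target genes outside the members, 1 fell. This was Plin2, a lipid droplet coat protein, at 7.23, 10.97 and 10.2 CPM in KO and 22.6, 20.6 and 23.8 CPM in WT (-1.24 ± 0.15, adjusted p 0.000217).

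Lipid storage genes included the steepest decrease of the related lists. Dgat1, which makes triacylglycerol, had 11.7, 11.9 and 11.5 CPM in KO and 58.2, 46.2 and 59.7 CPM in WT. No KO library came near a WT library (-2.22 ± 0.10, adjusted p 2.49e-06). In the lipolysis and lipid droplet list 5 of 10 tested genes fell, with Plin2, Plin3 (-0.49 ± 0.08, adjusted p 0.00105) and the lysosomal lipase Lipa (-0.57 ± 0.07, adjusted p 0.000288) beside Dgat1, and 2 rose. Dgat2, which catalyses the same step as Dgat1 and was named after its value was seen, was among the 2 that rose (1.15 ± 0.23, adjusted p 0.00311), at 2.72 to 3.59 CPM in KO and 1.08 to 1.81 CPM in WT. In the list of other uptake, binding and activation genes 6 of 11 fell and 3 rose, and the 3 became 1 without KO replicate 2 or without WT replicate 1. Acsl6, a synthetase at 0.495 to 0.963 CPM in KO and 1.78 to 2.91 CPM in WT (-1.59 ± 0.29, adjusted p 0.00188), and the acyl-CoA binding proteins Acbd6 (-0.37 ± 0.07, adjusted p 0.00215) and Acbd4 (-0.64 ± 0.13, adjusted p 0.00274) fell. Acbd6 did not pass against a 1.2-fold change (adjusted p 0.0856).

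**Figure D4:**
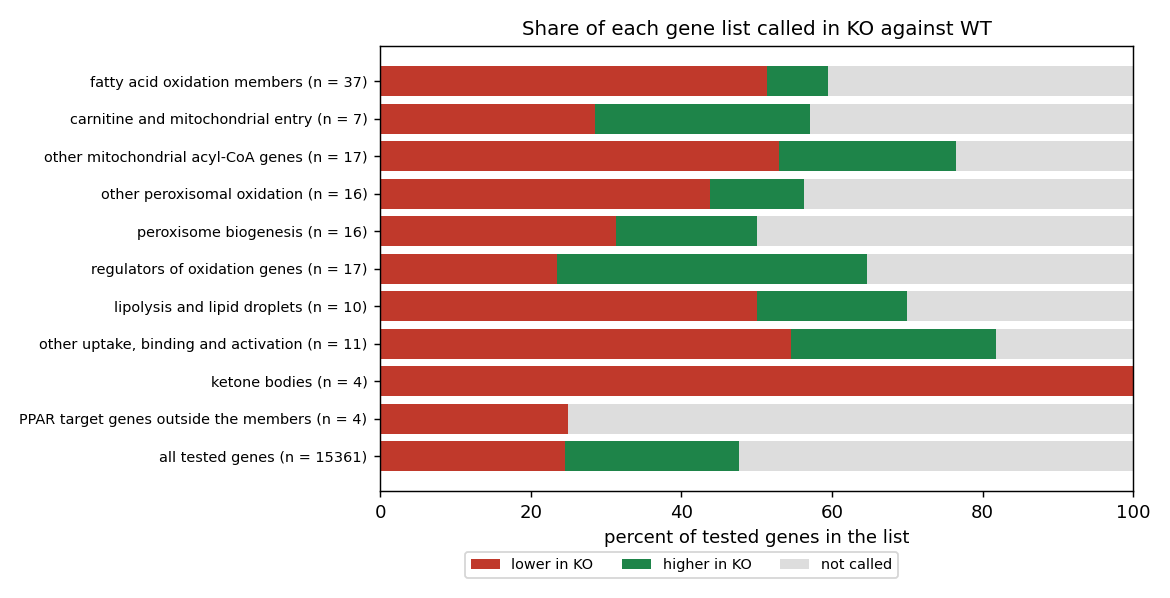
Percent of tested genes (x axis) called lower, called higher or not called in KO against WT, for the members, the 9 related lists and all tested genes (y axis). The members have 51.4% lower and 8.11% higher, against 24.5% and 23.1% of all tested genes.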

How the data were processed

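RNA was prepared with a NucleoSpin kit and sequenced from strand-specific mRNA libraries, per the labels' protocols. The deposited table holds expected counts per gene, in whole numbers. Salmon, DESeq and DESeq2 appear, with no version or role, in the submitters' processing notes. Neither the genome build nor the annotation release is given in the sources used here. Low genes had been removed: every row has at least 10 counts in 3 libraries. Symbols came from GENCODE M21 by unversioned gene ID (15138 matched, 314 not), and level per kb uses the longest principal coding transcript of that release.

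Counts were tested with edgeR 4.0.16 in R 4.3.3: filterByExpr (91 genes removed), TMM, a robust quasi-likelihood fit on genotype alone, and Benjamini-Hochberg adjustment over 15361 genes at 0.05. Groups come from the genotype labels and replicate numbers from the titles. The biological coefficient of variation was 13.8%. No replicates were alike enough to be 1 library (chi-square per degree of freedom at least 24.3). Floors of 3 counts cover counting error only. The code of the test was checked on simulated counts with far fewer changed genes and a smaller spread than here. Genes with low counts were left out of that check, so it does not cover them. Alternatives were RLE, upper-quartile and library-total scaling, DESeq2 1.42.0, limma-voom (limma 3.58.1), other filters, no robust dispersion, a test against 1.2-fold, a replicate block and each library left out. Chosen after seeing the data were the B cell marker sum as a covariate, omission of the 3 libraries in which B cell markers were raised, and removal of 23 entries over 5 times higher in KO replicate 2 than in the other KO libraries (5.85% of its counts).

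The members, gene lists and tests were chosen with earlier results of these data known. All members are named by role, with up to 4 called genes of each other list by smallest p, except a few that are not reported here. Marker lists other than T, Th17 and B cell gave low sums. The myeloid sum was 5.40 to 9.82 CPM in KO and 9.33 to 24.6 in WT (6 of 8 markers have a row). The dendritic sum was 3.53 to 9.29 in KO and 2.00 to 4.06 in WT (3 of 4). The CD8 T and NK sum was 5.58 to 14.9 in KO and 8.68 to 11.3 in WT (2 of 5, Cd8a and Cd8b1, so no NK marker). The adipocyte and stroma sum was 0.355 to 0.532 in KO and 0.279 to 0.373 in WT (1 of 5). No red cell marker has a row. Promoter windows are RefSeq's (GRCm38.p6). Figures used matplotlib 3.10.9 under Python 3.11.15.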

Additional observations from a re-analysis of the deposited data

How the results depend on the processing

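Of the 22 members called, 12 kept their call and direction in all 19 alternatives (Acsl4, Cpt1a, Acadm, Acadl, Acadvl, Acads, Etfb, Acaa2, Hsd17b10, Decr1, Acox3 and Hsd17b4). Another 5 lost it only against a 1.2-fold change, and 5 (Acad8, Acad9, Eci1, Eci2 and Decr2) in others. Against 1.2-fold the test called 12 members (1 higher, 11 lower) and 3981 of all genes, since it asks for a larger change. With the B cell marker covariate 1 member was higher. Leaving out 1 library at a time left 1 to 2 members higher and a median log2 fold change of -0.27 to -0.23 (values -0.2683 to -0.2251). The median was -0.1589 with upper-quartile scaling, -0.1942 with library totals and -0.185 with at least 50 counts in 3 libraries; the cause was not tested. Deviations of the genes from their group mean correlated at -0.0982, 0.0925 and -0.259 between same-numbered KO and WT libraries. Between differently numbered libraries the correlations ran from -0.182 to 0.271. With 3 libraries per group these values cannot decide whether the numbers stand for a pairing. With the replicate block 19 members were called, without Acad8, Eci1 and Decr2.

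Reversals were limited to members not called in the main fit, where their log2 fold changes ran from -0.15 (Acsl1) to -0.004 (Acsl5). The largest reversed value was that of Fabp5 without the 3 libraries with raised B cell markers, a fit that leaves KO replicate 1 alone. With upper-quartile scaling the log2 fold change was 0.0376 for Fabp5, 0.0356 for Slc27a1, 0.0219 for Acsl3, 0.0749 for Acsl5, 0.0684 for Hadhb and 0.0421 for Scp2. With library totals it was 0.0037 for Fabp5, 0.0013 for Slc27a1, 0.0395 for Acsl5, 0.0338 for Hadhb and 0.0061 for Scp2. With at least 50 counts it was 0.0027 for Fabp5, 0.0022 for Slc27a1, 0.0407 for Acsl5, 0.0345 for Hadhb and 0.0086 for Scp2. With the B cell covariate it was 0.0396 for Fabp5, 0.0049 for Acsl3, 0.0042 for Acsl5 and 0.0281 for Hadhb. Without the 3 libraries with raised B cell markers it was 0.3549 for Fabp5, 0.1053 for Acsl1, 0.0709 for Acsl3, 0.1229 for Acsl5, 0.1162 for Hadhb and 0.0462 for Acaa1a. Leaving out 1 library gave -0.2349 to 0.0502 for Fabp5, -0.0861 to 0.0168 for Slc27a1, -0.0468 to 0.0455 for Acsl5 and -0.0718 to 0.0252 for Hadhb. The cause was not tested. With upper-quartile scaling or library totals 3 other peroxisomal oxidation genes were lower, beside 7 with TMM. With upper-quartile scaling 7 other mitochondrial acyl-CoA genes were higher, beside 4, and 2 regulators were lower, beside 4. Cd36 had 4 to 29 counts per library, and no alternative called it.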
